A study of Mus musculus with 5 samples.

Results

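The 9 genes described here, Nes, Vim, Fabp7, Sox2, Sox9, Pax6, Lhx2, Prom1 and Msi1, are widely used markers and transcription factors of neural stem/progenitor cells (NSPCs). They were chosen by name, and all 9 were found among the 12588 gene sums of the series, where a gene sum adds the normalized counts of all listed transcripts of a gene symbol. Gene expression was measured by stranded poly(A) RNA-Seq in 5 libraries of untreated mouse NSPC cultures, 2 labelled WT (p75NTR+/+) and 3 labelled p75NTR-/-. Both labels name the C57BL/6J strain, the WT cells came from litter mates, and all cultures received FGF-2 (20 ng/ml) and EGF (20 ng/ml). The labels give the cells as E12.5 embryos, whereas the study's methods describe NSPCs of the adult subventricular zone, and the p75NTR-/- mice are described there as deficient for the receptor, with no restriction to a cell type. The comparison was made to find genes that differ with the genotype of the p75 neurotrophin receptor, a member of the tumour necrosis factor receptor family.

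The libraries held between 11688211 and 14452396 counts, and the replicates carry the numbers 1 and 4 (WT) and 1, 2 and 4 (p75NTR-/-). Ngfr, the gene for the p75 neurotrophin receptor, went against the labels, with normalized counts of 0.98 and 2.08 in the WT libraries and of 9.89, 140.6 and 251.4 in the p75NTR-/- libraries. The log2 difference of Ngfr was 4.89, with a limma adjusted p of 0.93 for the gene sum. With DESeq2 the adjusted p of its transcript Ngfr-201 was 0.00825. The deposited value covers the whole transcript and does not separate the part of the gene that a deletion removes. Whether the labels match the genotypes of the libraries was not tested. Every direction below is therefore one between libraries labelled WT and p75NTR-/-. The 2 libraries numbered 4 stood together over many genes, since both lay above the other 3 in 23.3% of all gene sums and below them in 21.1%. The labels number the replicates without saying what separates them. The study describes 4 replicas for its RNA-Seq, from independently prepared NSPCs, whereas 2 WT and 3 p75NTR-/- libraries were available here. The p-values weigh a difference between the labels against the spread between these libraries, which the main fit treats as independent. With limma, the spread of each gene is also drawn towards that of all features fitted.

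Neural stem cells and radial glia keep an elongated shape with intermediate filaments built from nestin (Nes) and vimentin (Vim), and they carry the brain fatty acid-binding protein Fabp7. The transcription factor Sox2 keeps them in the undifferentiated state, and Sox9 acts in the start and upkeep of neural stem cells and in the switch to gliogenesis. Pax6 and Lhx2 pattern the dorsal forebrain, Msi1 (Musashi-1) is an RNA-binding protein that represses translation of differentiation factors, and Prom1 (prominin-1, CD133) is a membrane glycoprotein of apical protrusions and primary cilia. All 9 genes had counts in every library, so the cultures carried the whole set, with Prom1 at the lowest level (18 to 76 counts). Of the markers of other cell types, 0 of 5 microglial genes were among the analysed symbols, as was 1 of 5 endothelial genes (Kdr) and 1 of 6 pericyte or fibroblast genes (Col1a1). More were analysed for astrocytes (6 of 7), neurons (4 of 8) and the oligodendrocyte lineage (4 of 7), and 1 of 4 for intermediate progenitors, as described further on. A marker without a gene sum has no value here, so its level in the cultures was not judged.

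Among the members, Pax6 is the one whose listed transcripts differ by a known switch in protein function, the alternative exon 5a, which inserts residues into the paired DNA-binding domain and alters the sites it recognises. The exon lies in the coding sequence at chr2:105684751-105684792 (GRCm38, plus strand), is 42 bases long (14 codons) and is shown in capitals between the last and the first 21 bases of its neighbouring exons, with the junction that skips it on the second line.
Pax6 with exon 5a: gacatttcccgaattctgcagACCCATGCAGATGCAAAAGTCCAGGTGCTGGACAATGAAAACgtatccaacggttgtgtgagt
Pax6 without exon 5a: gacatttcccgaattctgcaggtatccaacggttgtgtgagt

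The RefSeq start regions of the 3 most abundant members are printed because their levels, given further on, varied in different ways between the libraries. For Nes the labels did not overlap, as for 15.0% of all gene sums, but the libraries numbered 4 were close (13101 in WT and 13413 in p75NTR-/-). For Vim both libraries numbered 4 were above the other 3, as for 23.3% of all gene sums, and Fabp7 hardly varied. Each sequence runs from 250 bases before to 50 bases after the RefSeq start (GRCm38.p6), in the direction of the gene. The windows are chr3:87970843-87971142 for Nes, chr2:13574061-13574360 for Vim and chr10:57784673-57784972 for Fabp7, all on the plus strand. These starts are not always those of the listed transcripts with most counts. The Nes start is that of Nes-201 (chr3:87971093). Vim-201 starts at chr2:13573952, upstream of the whole Vim window. Fabp7-201 starts at chr10:57784881, upstream of the RefSeq start used, which is that of the minor Fabp7-202 (chr10:57784923). Capitals mark matches on either strand to the CCAAT box (CCAAT), the TATA box (TATAAA), the GC box (GGGCGG), the core of Sox sites (ATTGT), the core of Rbpj sites (TGGGAA) and an E box (CAGCTG), and the marked matches do not overlap each other.
Nes: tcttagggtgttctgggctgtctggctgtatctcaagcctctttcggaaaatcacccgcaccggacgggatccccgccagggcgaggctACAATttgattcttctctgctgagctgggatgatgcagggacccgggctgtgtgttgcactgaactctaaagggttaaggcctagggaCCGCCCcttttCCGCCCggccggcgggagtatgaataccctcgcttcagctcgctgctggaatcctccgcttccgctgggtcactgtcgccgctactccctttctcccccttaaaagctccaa
Vim: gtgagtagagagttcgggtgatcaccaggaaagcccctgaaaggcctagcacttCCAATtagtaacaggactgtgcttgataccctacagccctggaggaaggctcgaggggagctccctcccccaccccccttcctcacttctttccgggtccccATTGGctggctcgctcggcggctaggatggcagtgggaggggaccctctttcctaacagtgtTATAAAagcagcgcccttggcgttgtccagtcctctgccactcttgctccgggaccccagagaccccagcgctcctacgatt
Fabp7: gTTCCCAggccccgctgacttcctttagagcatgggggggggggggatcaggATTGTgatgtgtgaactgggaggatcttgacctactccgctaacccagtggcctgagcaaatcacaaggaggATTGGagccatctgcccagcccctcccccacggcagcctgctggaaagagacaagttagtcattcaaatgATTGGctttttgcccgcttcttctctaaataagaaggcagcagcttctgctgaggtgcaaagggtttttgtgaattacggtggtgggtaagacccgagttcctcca

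The Vim region held 2 CCAAT boxes and a TATA box, the Fabp7 region held 2 CCAAT boxes with 1 ATTGT and 1 TGGGAA, and the Nes region held 2 GC boxes with 1 ATTGT. RefSeq promoters were found for 7 of the 9 genes, 10 promoters in all, with no entry for Sox9 and Msi1. CCAAT occurred in 5 of these 10 promoters and in 37.4% of all 32851 promoters, ATTGT in 3 of 10 and 31.0%, TGGGAA in 4 of 10 and 25.6%, GGGCGG in 4 of 10 and 35.7%, TATAAA in 1 of 10 and 13.6%, and CAGCTG in 0 of 10 and 16.3%. These matches describe the letters in these windows and were not related to the levels.

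None of the 9 genes passed the criteria for a difference between the labels, namely a limma adjusted p under 0.05, a change of 1.5-fold or more and a mean of 50 or more normalized counts. Over all gene sums 1 gene met them (Gm15446, higher under p75NTR-/-), or 0.00794%. An unadjusted limma p under 0.05 was found for 0 of the 9 genes and for 2.08% of all gene sums, and the limma adjusted p of the members lay between 0.93 and 1.00. On the recovered counts edgeR called 0 of the 9 genes (0% of all gene sums) and DESeq2 called 0 of 9 (0.0556% of all gene sums). With each of these 2 tools Nes was the 1 member with an unadjusted p under 0.05, as were 2.11% of all gene sums with edgeR and 3.00% with DESeq2. Of the 9 genes 4 had a higher and 5 a lower mean log2 level under p75NTR-/- (50.7% of all gene sums had a higher one), and their median log2 difference was -0.02, beside 0.00 over all gene sums. In bulk RNA of a culture, fewer cells that express a gene and less of its RNA per cell cannot be told apart.

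**Figure D1:**
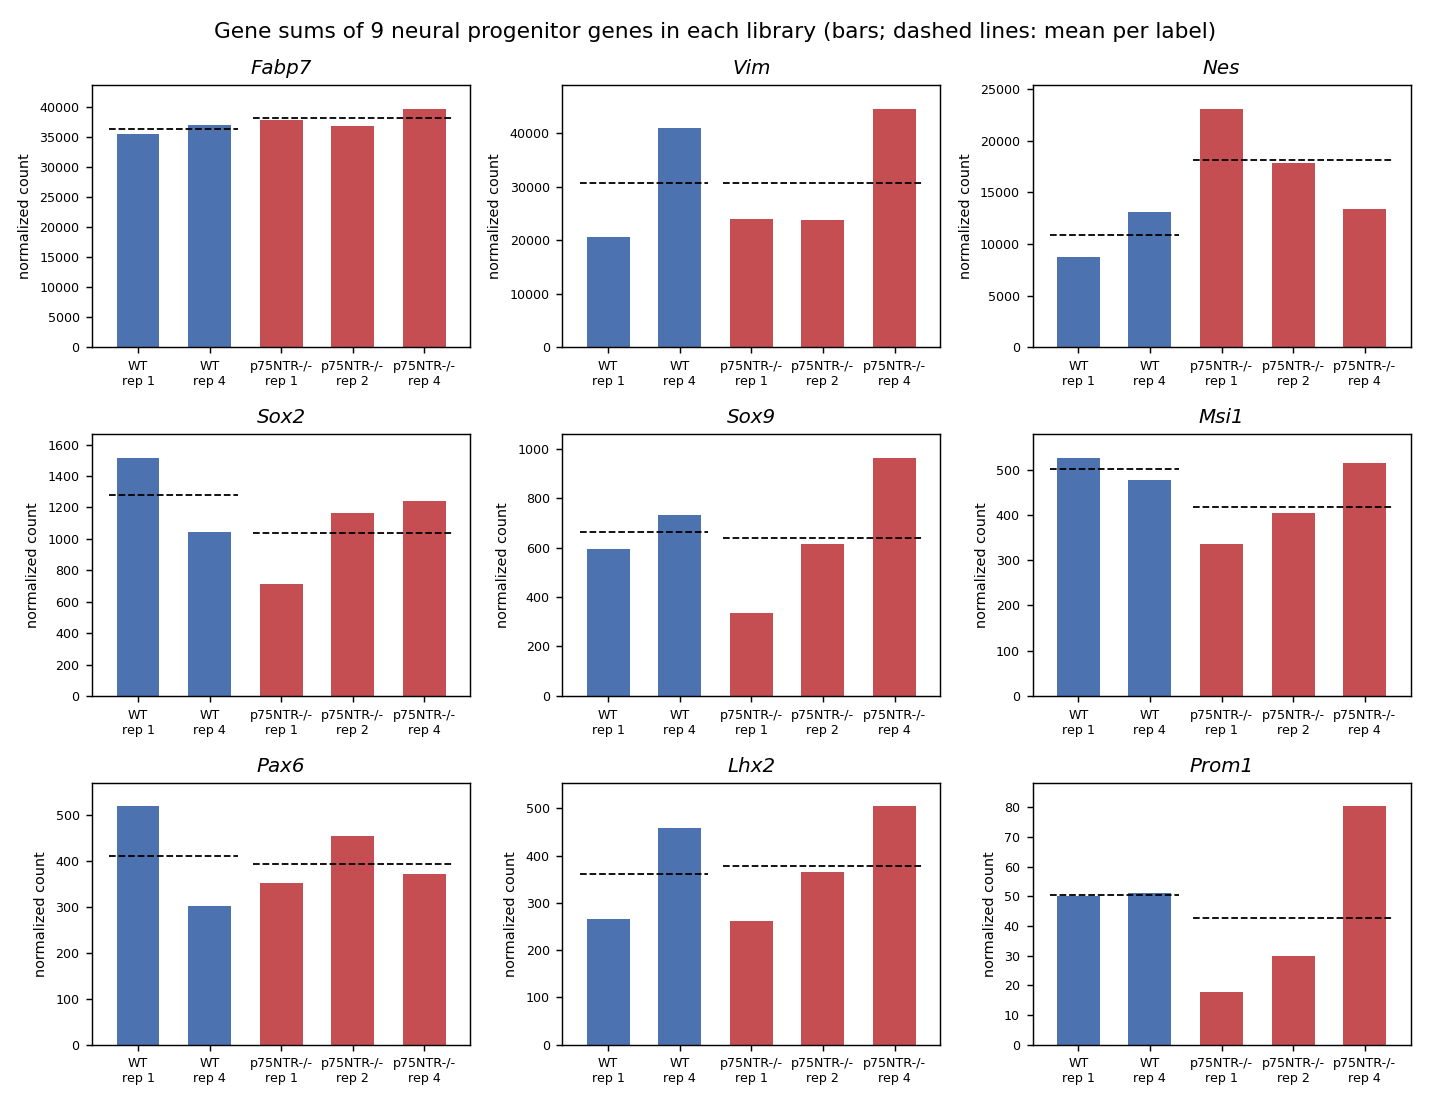
Gene sums (normalized counts, linear axes from 0) of the 9 genes, 1 bar per library, WT in blue and p75NTR-/- in red, with the mean of each label as a dashed line. Nes is the gene whose 3 p75NTR-/- bars all stand above both WT bars, Fabp7 stays between 35613 and 39744 in all 5 libraries, and Vim is highest in the 2 libraries with replicate number 4.

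Fabp7, which binds long-chain fatty acids in radial glia, had the steadiest level of the set. Its normalized counts were 35613 and 37087 in WT and 37905, 36795 and 39744 in p75NTR-/- NSPCs. The ranges of the labels overlapped, and the highest library exceeded the lowest by a factor of 1.12. The means were 36350 ± 1043 (SD, n = 2) and 38148 ± 1490 (SD, n = 3), a log2 difference of 0.07 (SE 0.15, limma adjusted p = 0.96). The SD of its log2 level over the 5 libraries was 0.06, and 1.72% of the 10786 gene sums with a mean of at least 50 had a smaller one.

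Vim, the main intermediate filament protein of radial glia, was measured at 20556 and 40938 normalized counts in WT and at 23981, 23753 and 44562 in p75NTR-/- libraries. The high library of each label was the one numbered 4, and the labels overlapped almost fully. The means of 30747 ± 14412 (SD, n = 2) and 30766 ± 11949 (SD, n = 3) gave a log2 difference of 0.02 (SE 0.44, limma adjusted p = 1.00). Within replicate number 1 the p75NTR-/- library was higher by 0.22 on the log2 scale and within number 4 by 0.12. Without WT replicate 1 the log2 difference of Vim was -0.48 and without p75NTR-/- replicate 4 it was -0.28.

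Nes, the filament protein that partners vimentin and is widely used as a marker of neural progenitors, was the member with the largest difference. It had 8704 and 13101 normalized counts in WT and 23122, 17844 and 13413 in p75NTR-/- NSPCs. All 3 p75NTR-/- libraries lay above both WT libraries, but the lowest of them, number 4, was close to the higher WT library, also number 4. The means of 10902 ± 3110 (SD, n = 2) and 18126 ± 4861 (SD, n = 3) corresponded to a log2 difference of 0.73 (SE 0.32, 1.66-fold, limma adjusted p = 0.93). Within number 1 the log2 difference was 1.41 and within number 4 it was 0.03. With 1 library left out the value ran from 0.43 (without WT replicate 1) to 1.02 (without WT replicate 4), and no limma adjusted p fell under 0.05.

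Nes was the 1 member of 9 whose labels did not overlap, while 15.0% of all gene sums had labels that did not overlap, 7.52% with the higher values under p75NTR-/-. Vim and Nes, although partners in the same filaments, thus varied differently, and the ratio of their TPM (the authors' level per transcript length and library total) was 0.0965 and 0.0729 in WT and 0.220, 0.171 and 0.0686 in p75NTR-/- libraries. The ratio was lowest in the 2 libraries numbered 4 and highest in p75NTR-/- replicates 1 and 2.

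Sox2, the core factor of neural stem cell identity, had 1517 and 1045 normalized counts in WT and 714.4, 1165 and 1240 in p75NTR-/- NSPCs. The labels overlapped, with the highest library among the WT and the lowest among the p75NTR-/- samples. The log2 difference was -0.32 (SE 0.33, limma adjusted p = 0.93) between means of 1281 ± 334 (SD, n = 2) and 1040 ± 284 (SD, n = 3). It was -1.09 within number 1 and 0.25 within number 4. Sox2 lies within the span of the longer noncoding gene Sox2ot on the same strand.

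Sox9, which acts in stem cell maintenance and glial fate, had 594.7 and 733.4 normalized counts in WT libraries and 333.4, 613.9 and 963.5 in p75NTR-/- libraries. The p75NTR-/- range enclosed the WT range, and within each label the library numbered 4 was the highest. Its log2 difference was -0.18 (SE 0.47, limma adjusted p = 0.97), with means of 664 ± 98.1 (SD, n = 2) and 637 ± 316 (SD, n = 3). Without p75NTR-/- replicate 1, the lowest library, the log2 difference of Sox9 was 0.22.

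Pax6, which specifies dorsal progenitors and also acts in adult neurogenesis, was found at 518.2 and 302.7 normalized counts in WT and at 351.3, 454.1 and 371.9 in p75NTR-/- NSPCs. The 2 WT libraries were the highest and the lowest of the 5. The log2 difference was -0.02 (SE 0.29, limma adjusted p = 0.99), with -0.56 within number 1 and 0.30 within number 4. The means were 410 ± 152 (SD, n = 2) and 392 ± 54.4 (SD, n = 3).

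Lhx2, a LIM homeodomain factor that selects cortical fate, had 265.9 and 457.7 normalized counts in WT and 262.2, 365.2 and 503.9 in p75NTR-/- NSPCs. The libraries numbered 4 were the highest, as they were for Vim. Its log2 difference was 0.06 (SE 0.38, limma adjusted p = 0.99). The ratio of Pax6 to Lhx2 in TPM was below 1 in the 2 libraries numbered 4 (0.765 and 0.865) and between 1.37 and 2.14 in the other 3.

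Msi1 had 527.0 and 478.5 normalized counts in WT and 335.4, 404.9 and 514.5 in p75NTR-/- NSPCs. Its labels overlapped through p75NTR-/- replicate 4. The log2 difference was -0.29 (SE 0.23, limma adjusted p = 0.93), with means of 503 ± 34.3 (SD, n = 2) and 418 ± 90.3 (SD, n = 3).

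Prom1, whose protein is used to sort stem cells, was rare, with 50.05 and 50.97 normalized counts in WT and 17.8, 30.0 and 80.3 in p75NTR-/- NSPCs. The WT libraries were almost equal, while the p75NTR-/- libraries differed 4.51-fold among themselves and enclosed them. The log2 difference was -0.51 (SE 0.63, limma adjusted p = 0.93), and it was -1.44 within number 1 and 0.65 within number 4. Prom1 had a mean below 50 and could not have met the criteria. Its SD on the log2 scale was 0.81, and 95.8% of the 10786 gene sums with a mean of at least 50 had a smaller one. Prom1 lies outside that set, so it was compared only with genes of higher counts, where counting error is smaller.

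**Figure D2:**
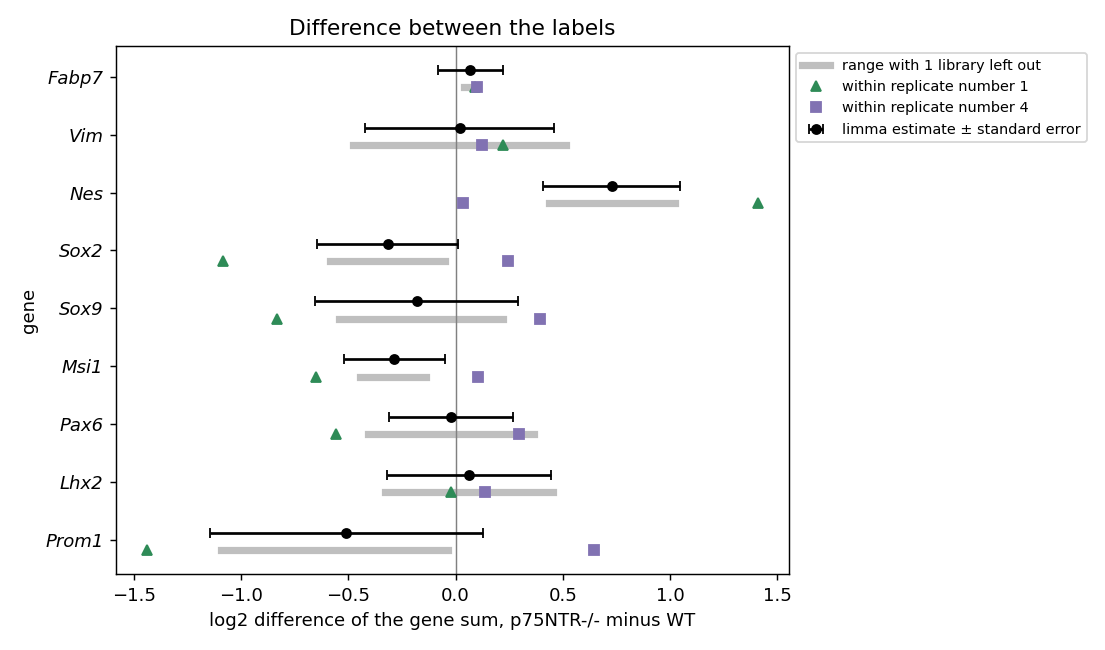
Log2 difference of the gene sum, p75NTR-/- minus WT, for each gene (black points, bars are the limma standard error from 5 libraries), with the range when 1 library is left out in grey and the values within replicate numbers 1 (triangles) and 4 (squares). Nes has the largest estimate (0.73) with 1.41 within number 1 and 0.03 within number 4, and Prom1 runs from -1.44 to 0.65.

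The values within the replicate numbers had the same sign for Fabp7, Vim and Nes and opposite signs for the other members. For Sox2, Sox9, Pax6, Lhx2, Prom1 and Msi1, the p75NTR-/- library was lower within number 1 and higher within number 4. The difference for Lhx2 within number 1 was small, -0.02, and that for Msi1 within number 4 was 0.10. Each of these values compares 1 library with 1 library and has no replicate check. The share of all gene sums with such opposite signs was not computed, so the pattern cannot be read as a trait of the members.

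Set by number instead of label, Vim, Sox9, Lhx2 and Prom1 had both libraries numbered 4 above the other 3, and 0 members had both below. This is 4 of 9 members, beside 23.3% of all gene sums above and 21.1% below. The mean log2 level in the libraries numbered 4 exceeded that of the others by 0.91 for Vim (1.88-fold), 0.76 for Sox9 (1.69-fold), 0.71 for Lhx2 (1.63-fold) and 1.07 for Prom1 (2.10-fold). For Fabp7 (0.06), Sox2 (0.07), Msi1 (0.26), Nes (-0.21) and Pax6 (-0.38) the 2 libraries numbered 4 were neither both above nor both below the other 3. No source used here says what the number stands for, and its part in the differences between the labels was not tested beyond the fits with it as a block or a term.

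**Figure D3:**
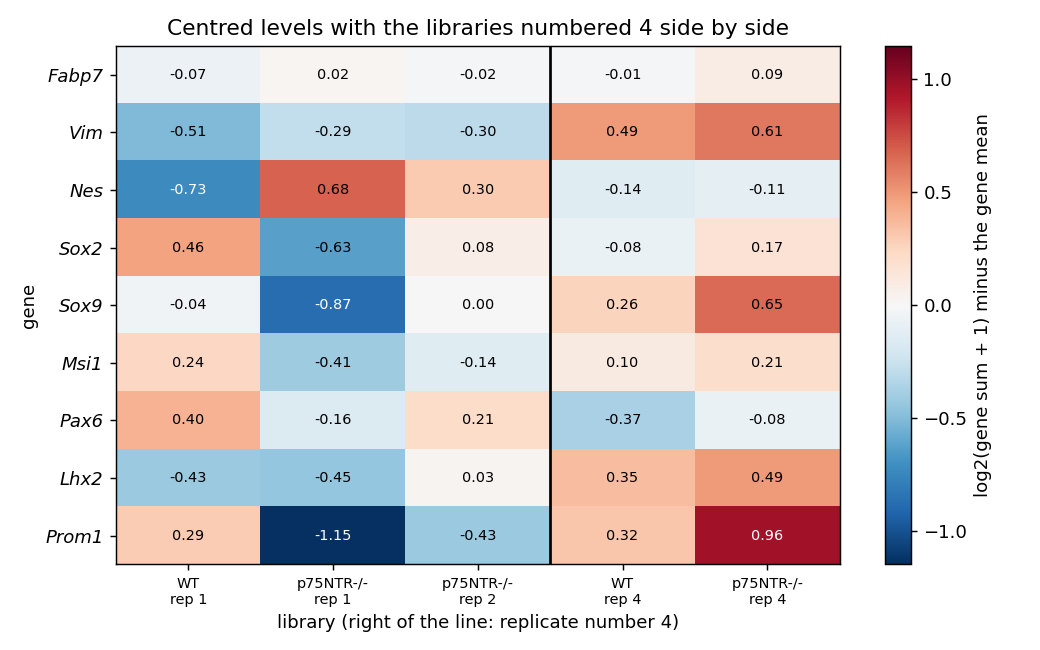
Heat map of log2(gene sum + 1) minus the mean of the gene, with the 2 libraries numbered 4 to the right of the line. Vim, Sox9, Lhx2 and Prom1 are above their mean in both of these libraries (0.26 to 0.96), and p75NTR-/- replicate 1 holds the lowest values of Sox2, Sox9, Msi1 and Prom1 beside the highest of Nes.

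The members did not move as 1 group across the libraries. The likest centred log2 profiles were those of Vim and Lhx2, with a root mean square difference of 0.185 over 5 libraries, and of Sox2 and Msi1, at 0.187. Nes and Prom1 were farthest apart, at 1.12. p75NTR-/- replicate 1 had the highest Nes level and the lowest levels of Sox2, Sox9, Lhx2, Msi1 and Prom1. For comparison, the SD of log2 levels was 0.53 for Nes, 0.51 for Vim, 0.56 for Sox9, 0.43 for Lhx2, 0.40 for Sox2, 0.31 for Pax6 and 0.27 for Msi1, and 0.25 for the median of 10786 gene sums.

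For the 5 members whose highest library was at least 2 times the lowest, the genes with the likest profile over the 5 libraries were sought among all gene sums with a mean of at least 50. They were Ifrd1, Neurl1a and Kirrel for Nes (root mean square differences of 0.023, 0.036 and 0.052 on the log2 scale), Spty2d1, Zbtb21 and Lrrc73 for Vim (0.025, 0.036 and 0.053), and Snx30, Reep1 and Plekhm3 for Sox2 (0.070, 0.072 and 0.076). Acsl6, Rgs9 and Gli2 were likest to Sox9 (0.097, 0.098 and 0.105), and Tprn, Camk2n1 and Plekho2 to Prom1 (0.115, 0.131 and 0.148). Ifrd1 followed Nes with 804.7 and 1210 normalized counts in WT and 2088, 1686 and 1217 in p75NTR-/- libraries. With 5 libraries and 10786 gene sums searched, such likeness is a description.

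Levels of different genes were compared per length. In the authors' TPM, Fabp7 was the most abundant member at 6270 to 6927 TPM, between ranks 11 and 14 of all gene sums, and it made up 77.2% to 84.9% of the TPM of the 9 genes. Vim followed at 781 to 1676 TPM, then Nes at 75.3 to 203, Sox2 at 75.9 to 159, Sox9 at 16.6 to 46.6, Msi1 at 21.3 to 33.0, Pax6 at 16.9 to 27.1 and Lhx2 at 12.7 to 23.9 TPM. Prom1 was last with 0.30 to 1.33 TPM. The ranges over libraries did not overlap between Fabp7 and Vim, Vim and Nes, Sox2 and Sox9, or Lhx2 and Prom1. Neighbours that overlapped were Nes and Sox2, Sox9 and Msi1, Msi1 and Pax6, and Pax6 and Lhx2.

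The TPM rest on effective lengths that Salmon corrected for GC bias, and these differ from the annotated lengths by gene. In normalized counts per kilobase of annotated transcript, an alternative added after the data were seen, Nes ranged from 1421 to 3776 and Sox2 from 347.3 to 737.6, so these 2 genes did not overlap on that scale. The ratio of their mean levels was 1.11 in TPM and 4.50 per kilobase. Sox9 moved from the fifth to the seventh place per kilobase, and the 4 most abundant genes and Prom1 kept their places.

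**Figure D4:**
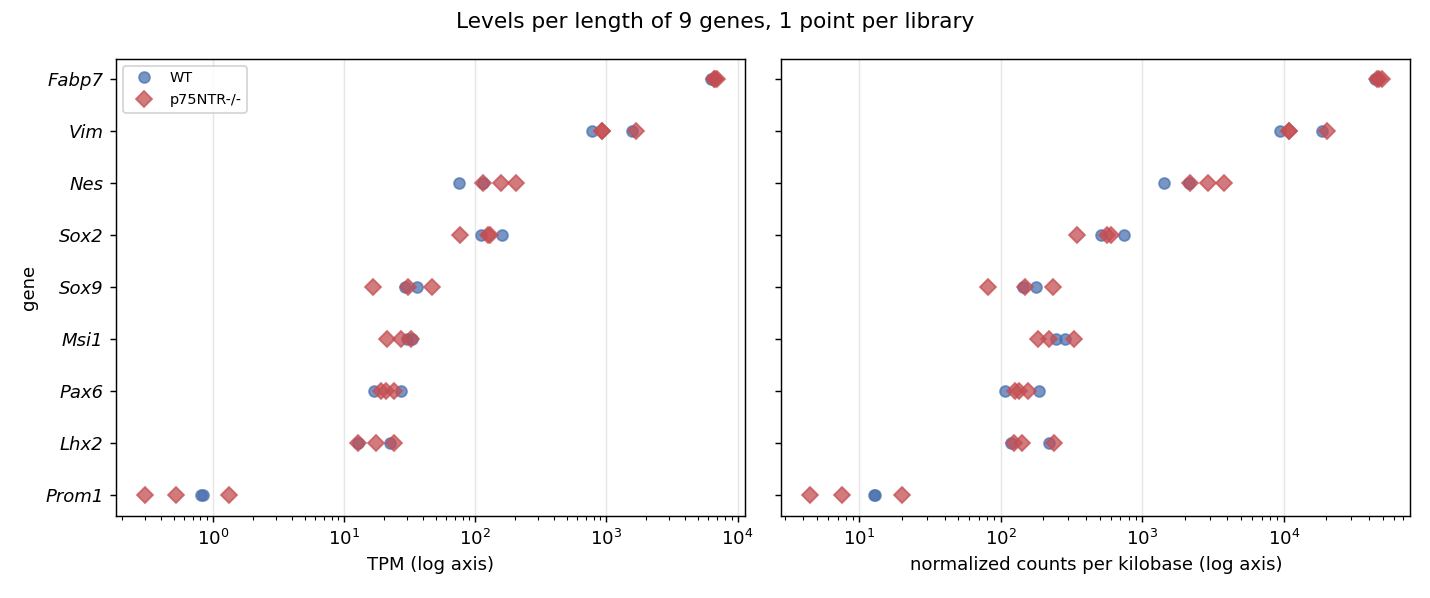
Level of each gene per length, 1 point per library (log axes), as TPM on the left and as normalized counts per kilobase of annotated transcript on the right, WT circles and p75NTR-/- diamonds. Fabp7 (6270 to 6927 TPM) and Prom1 (0.30 to 1.33 TPM) mark the ends on both scales, and Nes and Sox2 overlap in TPM but not per kilobase.

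The 9 genes had 20 listed transcripts, and 7 genes had more than 1. None of the 20 passed the criteria (0.0135% of all transcripts did), 0 had an unadjusted limma p under 0.05 (3.14% of all transcripts did), and the lowest limma adjusted p was 0.96. The labels did not overlap for 3 of them (Nes-201, Fabp7-202 and Msi1-208), beside 16.6% of all transcripts. Transcripts of a gene share exons to differing degrees, and the split between them is an estimate of the quantifier. The 95% Wilson intervals given with single-library shares cover counting error only.

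Nes-201, with 98.3% to 99.4% of the gene sum, and Vim-201, with 99.9% to 100%, carried almost all of the filament genes' counts. Fabp7-201 held 99.7% to 99.9%. The minor Fabp7-202, which starts downstream at chr10:57784923 and has 446 bases of its own, had 55.0 and 45.8 normalized counts in WT and 130.6, 85.3 and 58.1 in p75NTR-/- NSPCs. The p75NTR-/- libraries were the 3 highest, with the lowest of them close to WT, and the log2 difference was 0.78 (SE 0.40, limma adjusted p = 0.96). Msi1-208, the longest listed Msi1 transcript, had 342.5 and 333.9 normalized counts in WT and 231.5, 263.1 and 264.1 in p75NTR-/- libraries, a log2 difference of -0.42 (SE 0.19, limma adjusted p = 0.96). Unlike the Msi1 gene sum, the Msi1-208 values of the labels did not overlap, and its share of the gene sum was lowest in p75NTR-/- replicate 4, at 51.3%, beside 65.0% to 69.8% in the other libraries.

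Pax6 was represented by 4 of its 26 annotated transcripts. Pax6-207, the full-length form without exon 5a, held 61.5% to 66.2% of the gene sum, and Pax6-208, a form with a later start and a shorter coding sequence of 762 bases, held 25.8% to 32.5%. The 2 listed forms with the exon shown above were Pax6-224, a short form with 2.91% to 7.67%, and Pax6-206, the full-length form. Pax6-206 had 19 of 528 Pax6 counts in WT replicate 1 and 0 counts in the other 4 libraries, which allows a share of up to 0.794% to 1.03%. Together, the forms with exon 5a made up 8.90% (95% interval 6.76 to 11.6) and 6.53% (4.22 to 9.97) of Pax6 counts in WT and 5.92% (3.90 to 8.87), 2.91% (1.63 to 5.14) and 7.67% (5.32 to 10.9) in p75NTR-/- libraries. The labels overlapped. Pax6-224 has 1087 of its 1635 bases in no other annotated Pax6 transcript and 42 in exon 5a, so its counts mostly did not rest on the exon itself, and Pax6-206 and Pax6-207 have 0 bases of their own.

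Lhx2 was split between Lhx2-201, which starts at chr2:38350759, and Lhx2-203, which starts upstream at chr2:38339281. Lhx2-201 made up 60.1% and 45.7% of the gene sum in WT and 47.9%, 84.5% and 51.2% in p75NTR-/- NSPCs. p75NTR-/- replicate 2 stood apart from the other 4 libraries, with a 95% interval of 80.0% to 88.2%, while the labels overlapped. Prom1-205 had 7.84% and 12.2% of the Prom1 sum in WT and 16.7%, 28.0% and 40.8% in p75NTR-/- libraries. All 3 p75NTR-/- shares were higher than both WT shares, but they rested on 4, 6, 3, 7 and 31 counts, and the 95% interval of WT replicate 4 (5.73% to 24.2%) included the share of p75NTR-/- replicate 1.

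**Figure D5:**
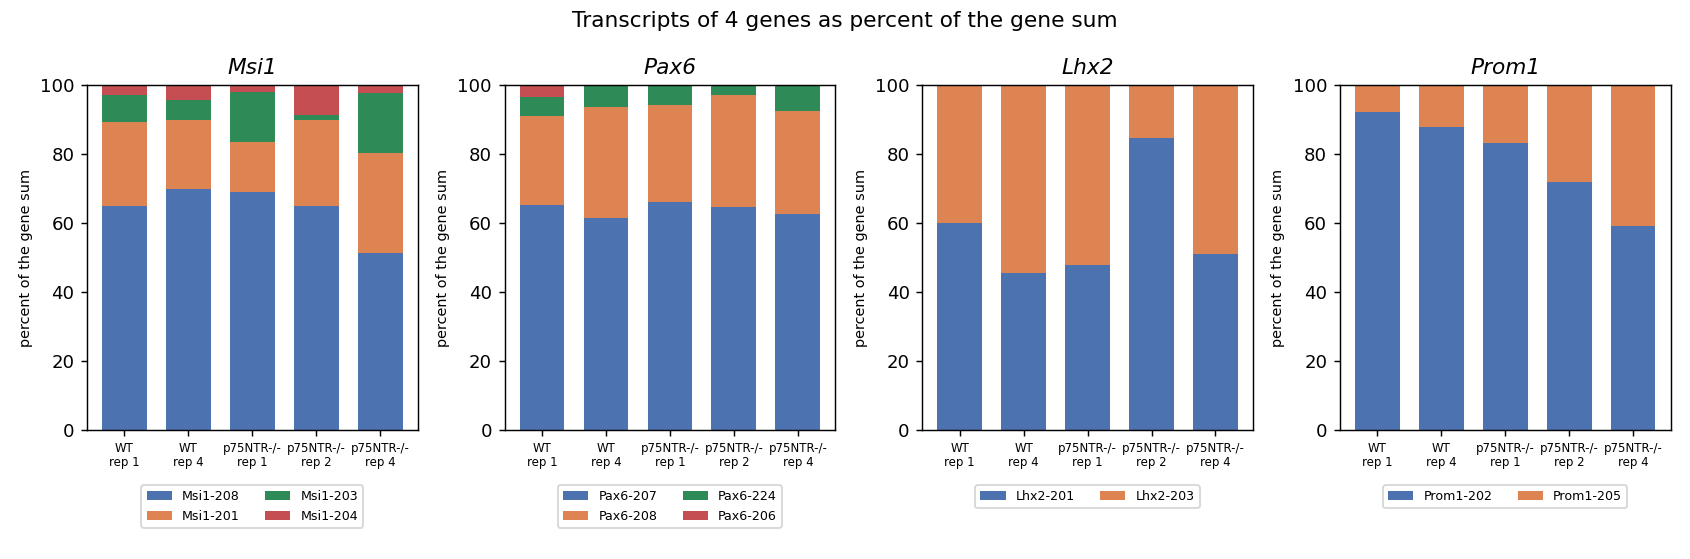
Listed transcripts of Msi1, Pax6, Lhx2 and Prom1 as percent of the gene sum in each of the 5 libraries (stacked bars to 100%). Pax6-207 stays between 61.5% and 66.2%, Lhx2-201 stands out at 84.5% in p75NTR-/- replicate 2, and Prom1-205 reaches 40.8% in p75NTR-/- replicate 4.

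The other neural stem and radial glia genes were viewed beside the members. Of 20 such genes, 19 were analysed, 0 met the criteria, 7 were higher and 12 lower under p75NTR-/-, with a median log2 difference of -0.13 beside 0.00 over all gene sums. Ptprz1, a receptor phosphatase of radial glia, had the highest gene sum and a log2 difference of -0.13 (SE 0.20), followed by Dbi, an acyl-CoA-binding protein (-0.37, SE 0.25). Tnc, the extracellular matrix protein tenascin-C, had 3815 and 12193 normalized counts in WT and 14122, 12202 and 15287 in p75NTR-/- libraries. WT replicate 1 was low and WT replicate 4 was just below the lowest p75NTR-/- library, and the log2 difference was 1.02 (SE 0.51, limma adjusted p = 0.93). Zbtb20, a hippocampal and astroglial transcription factor, had a log2 difference of -1.05 (SE 0.65, limma adjusted p = 0.93).

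Pax6 and Lhx2 belong to the regional transcription factors of the forebrain, of which 11 of 22 listed genes were analysed. None met the criteria, 4 were higher and 7 lower, and the median log2 difference was -0.11. Nkx6-2, named after its values were seen as the 1 gene of the list with an unadjusted limma p under 0.05, had 2.94 and 4.16 normalized counts in WT and 9.89, 8.41 and 7.40 in p75NTR-/- libraries (limma adjusted p = 0.93), a level close to the limit of 3 counts. Olig2, which marks ventral and oligodendroglial progenitors, had 1210 and 704.3 normalized counts in WT and 1774, 1987 and 701.5 in p75NTR-/- NSPCs. Both libraries numbered 4 were low, and the log2 difference was 0.55 (SE 0.54, limma adjusted p = 0.93). Meis2 (log2 difference -0.26, SE 0.27) and Otx1 (-0.34, SE 0.34) had labels that overlapped.

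Paralogues of the members were analysed for 11 of 23 genes, with 0 past the criteria, 4 higher and 7 lower, and a median log2 difference of -0.14. Fabp5 (log2 difference -0.24, SE 0.22) and Sox8 (-0.27, SE 0.49) had the highest gene sums, and Sox1, the close relative of Sox2, had a log2 difference of -0.55 (SE 0.35). Gfap, the intermediate filament protein of astrocytes that assembles with vimentin, had 241.4 and 680.3 normalized counts in WT and 11.9, 1.20 and 745.9 in p75NTR-/- libraries. As with Vim, the libraries numbered 4 were the highest, and the log2 difference of -3.88 (SE 2.52, limma adjusted p = 0.93) was between labels that overlapped.

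Markers of other cell types moved beside the members as follows. All 6 analysed astrocyte markers of 7 had a lower mean log2 level under p75NTR-/- (median log2 difference -0.84), while 50.7% of all gene sums had a higher one. One of them had an unadjusted limma p under 0.05 (Aldoc, 0.047, limma adjusted p = 0.93), and 0 met the criteria. The labels did not overlap for 2 of the 6, beside 15.0% of all gene sums. Within number 4 the p75NTR-/- library was higher for Gfap (745.9 against 680.3), Aldh1l1 (25549 against 22171) and S100b (409.9 against 347.45). It was lower there for Aqp4, Aldoc and Slc1a2. The summed level of the 6 markers was 31614 to 37169 normalized counts in WT and 21407 to 34575 in p75NTR-/- libraries. It was lowest in p75NTR-/- replicates 1 and 2, where Nes was highest. Aldh1l1 had the highest gene sum of them (log2 difference -0.16, SE 0.24), and Aqp4 had a log2 difference of -1.66 (SE 0.95). Their part in the differences of the members was not tested.

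Of the neuronal markers 4 of 8 were analysed, with 2 higher and 2 lower, a median log2 difference of -0.01 and a summed level of 6348 to 9561 in WT and 6034 to 9369 in p75NTR-/- libraries. Map2 (log2 difference 0.04, SE 0.34) made up most of it, Gap43 had 0.21 (SE 0.63), Tubb3 had -0.21 (SE 0.23), and Dcx was not analysed here. Of the oligodendrocyte lineage markers 4 of 7 were analysed, with 2 higher and 2 lower, a median of -0.19 and summed levels of 1643 to 3597 in WT and 1674 to 3806 in p75NTR-/- libraries, lowest in the 2 libraries numbered 4. The log2 differences were 0.01 for Olig1 (SE 0.54), 0.16 for Cspg4 (SE 0.38) and -0.39 for Pdgfra (SE 0.55). Btg2, the 1 analysed of 4 intermediate progenitor markers, had 362.0 to 1191 normalized counts in WT and 369.1 to 749.7 in p75NTR-/- libraries (log2 difference -0.47, SE 0.61). Kdr lay between 37.5 and 62.3 and Col1a1 between 10.9 and 37.3 normalized counts over the 5 libraries.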

How the data were processed

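RNA of untreated NSPC cultures was made by the authors into 5 stranded TruSeq libraries and sequenced. Per the submitters' notes and the study's methods, reads were checked with FastQC, quantified with Salmon 0.10.2 (GC bias correction) on the GRCm38.p6 transcriptome, imported with tximport and normalized with DESeq2 1.22.0. In the deposited signal, counts had been divided by a size factor per library before 0.5 was added, and the deposited TPM, a score by its checked range, is the authors' level per length. The authors' own mean, log2 fold change, p-value and adjusted p-value columns were not used, and 0 per-sample columns stayed unmapped. After 0.5 was subtracted, 100% of the values below an upper limit were whole multiples (tolerance 0.1) of a step of 0.981 to 1.20 normalized counts, which gave the counts. Values above that limit, among them those of Fabp7-201, Vim-201 and Nes-201, were rounded to whole steps without this check. A count of 3, the upper limit for 0, equals 2.94 to 3.60 normalized counts.

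The table holds 22530 lines for 22227 transcripts, because 303 repeat a transcript. The design assumed genes, so normalized counts and TPM were summed per symbol. limma 3.58.1 in R 4.3.3 was fitted to log2(value + 1) over all 12588 gene sums and 22227 transcripts, without covariates, with Benjamini-Hochberg adjustment. Fold changes on this scale understate changes of low genes. Genes were called at a mean of at least 50, a fold change of 1.5 and an adjusted p under 0.05, the study's criteria. With 2 against 3 libraries an exact permutation test of 1 gene cannot go below p = 0.1. edgeR 4.0.16 and DESeq2 1.42.0 on recovered counts, other pseudocounts, scalings, a replicate block, number 4 as a term and omission of each library were alternatives. On simulated gene sums limma called 0, 23, 46 and 49 of 50 genes changed 2-, 4-, 16- and 64-fold. Its 125 calls included 7 unchanged genes. Of the 50 genes changed 2-fold, edgeR called 4 and DESeq2 called 16. Unchanged genes were 10 of 155 calls with edgeR and 32 of 191 with DESeq2. The simulated libraries varied independently, without the shared deviation of the libraries numbered 4. Coordinates and exons come from GENCODE M21 (GRCm38). Python 3.11.15 with pandas 2.3.3, numpy 2.4.6, scipy 1.17.1 and matplotlib 3.10.9 was used.

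The members and lists were chosen with earlier results of these data known. The text names every member, genes past the criteria, the 2 genes of each list with the highest gene sums and the 2 with the largest differences with a mean of at least 50, and the 3 likest profiles of members varying at least 2-fold. Of the genes this rule names, 1 is not reported here.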

Additional observations from a re-analysis of the deposited data

How the results depend on the processing

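No member met the criteria under any alternative run. The gene sums that met them numbered 1 with limma, 0 with edgeR (260 with an unadjusted p under 0.05), 7 with DESeq2 (377), 0 with the replicate block (240) and 0 to 1 with 1 library left out, with 0 without WT replicate 1 and without p75NTR-/- replicate 2. The transcripts numbered 3 with limma, 31 by adjusted p alone, 0 with a pseudocount of 5 (755 with an unadjusted p under 0.05), 0 with edgeR (534), 28 with DESeq2 (896), 0 with the replicate block (678), 0 with number 4 as a term (922) and 0 to 0 with 1 library left out. The causes were not tested. Fewer samples remained in the fits that left out a library, where a lone WT library is assumed to vary like the other label.

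The log2 difference of Fabp7 and Nes kept its sign in all alternatives (0.04 to 0.10 and 0.03 to 1.41). That of Vim (0.02) was -0.00365 with edgeR, -0.00417 with DESeq2, and from -0.48 to 0.52 with 1 library left out. Pax6 ran from -0.41 to 0.36, Lhx2 from -0.33 to 0.45 and Sox9 from -0.54 to 0.22 in that way. Pax6 was 0.36 without WT replicate 1, 0.05 without p75NTR-/- replicate 1 and 0.01 without p75NTR-/- replicate 4, Lhx2 was -0.33 without WT replicate 1 and -0.17 without p75NTR-/- replicate 4, and Sox9 was 0.22 without p75NTR-/- replicate 1. Within number 4 the sign also turned for Sox2 (0.25), Sox9 (0.39), Pax6 (0.30), Prom1 (0.65) and Msi1 (0.10), and within number 1 for Lhx2 (-0.020). The ratio of Nes to Sox2 was 1.11 in TPM and 4.50 in normalized counts per kilobase, an alternative chosen after seeing the data. Prom1 has no value where only genes with a mean of at least 50 were fitted.

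The labels share the numbers 1 and 4, 2 pairs, and although litter mates were used, no source ties a number to a litter or day. Deviations from the label means over 10786 gene sums correlated at 0.26 for number 1 and 0.48 for number 4, and at 0.48 between WT replicate 1 and p75NTR-/- replicate 2. With 2 WT libraries their deviations mirror each other, so these values are not independent, and whether the numbers pair the samples was not settled. With 2 against 3 libraries, changes of 2-fold were not recovered by limma on simulated data, and Prom1 rested on 18 to 76 counts per library.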
